A study of Mus musculus with 32 samples.

Results

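The genes described here are 10 genes of iron uptake, storage and export: Hamp, which encodes hepcidin, Tfr2, Tfrc, Trf, Slc11a2, Steap4, Slc40a1, Cp, Fth1 and Ftl1. They were taken by name, and each gene was represented by the probe set that lists no other gene and had the highest mean over all 32 arrays. A probe set is a group of short probes for 1 transcript. Such a probe set existed for 8 of the 10 genes, out of 18194 genes measured in the series. For Trf (transferrin) and Ftl1 (ferritin light chain) every probe set was listed with a further gene, and no value is given for them.

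Gene expression was measured in liver of CD-1 mice, an outbred stock, on Affymetrix MG 430 2.0 arrays. Of the 32 arrays, 12 came from microdissected embryonic livers of 6 stages, daily between E10.5 and E14.5 and then E16.5, named by days post conception. A further 18 came from livers of 10-week-old females after 2/3 of the organ was removed together with the gallbladder, in an early phase (1, 2 and 6 h), a middle phase (12, 18, 24 and 30 h) and a late phase (48 and 72 h). The last 2 came from normal livers of females of the same age (time 0), the stated control. The operated mice received ketamine and xylazine as anaesthetics and buprenorphine against pain, and no group with a sham operation is among the arrays. The effects of surgery, drugs and loss of tissue therefore cannot be told apart. There are 2 arrays in every one of the 16 groups, with RNA pooled from at least 3 tissues of different animals on each array. The labels name separate pools and no more, so a p-value reflects how far such pools spread. In pooled tissue, fewer cells of a type and less RNA per cell cannot be told apart.

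Iron circulates bound to transferrin and enters cells through transferrin receptor 1 (Tfrc). In the endosome it is reduced by proteins of the STEAP family and leaves through the divalent metal transporter DMT1 (Slc11a2). Surplus iron is stored in ferritin, and iron leaves cells through ferroportin (Slc40a1), helped by the ferroxidase ceruloplasmin (Cp). Hepcidin, a peptide hormone of hepatocytes, binds ferroportin and causes its degradation. Hepcidin transcription is known to be driven by iron through bone morphogenetic proteins (BMPs), their co-receptor hemojuvelin, HFE and transferrin receptor 2 (Tfr2), and by inflammation through interleukin 6 and the transcription factor STAT3. The fetal liver is also the site where red blood cells, the main users of iron, are made.

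The BMP and STAT inputs of the hepcidin gene are known to act through short motifs before its start. They are shown for Hamp, its paralog Hamp2 and Steap4, because these windows hold the STAT motif. The sequences are RefSeq's (GRCm38.p6), from 150 to 51 bases before the start of the transcript, written along the strand of the gene. Hamp lies at chr7:30944080-30944179 (minus strand), Hamp2 at chr7:30924232-30924331 (minus strand) and Steap4 at chr5:7960322-7960421 (plus strand). Capitals mark TTCNNNGAA, the STAT element, and GGCGCC, the core of the BMP response element. Both motifs read the same on both strands, and they did not overlap in these windows.
Hamp: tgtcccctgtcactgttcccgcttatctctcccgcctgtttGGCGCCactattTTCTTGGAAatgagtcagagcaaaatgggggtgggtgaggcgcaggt
Hamp2: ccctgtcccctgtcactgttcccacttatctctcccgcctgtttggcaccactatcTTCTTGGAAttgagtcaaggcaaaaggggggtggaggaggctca
Steap4: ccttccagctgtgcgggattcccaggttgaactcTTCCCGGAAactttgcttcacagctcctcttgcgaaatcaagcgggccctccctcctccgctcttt
The STAT element of Hamp starts 97 bases before the transcript and its GGCGCC 109 bases before it. Hamp2 holds the STAT element 94 bases before its start and has no GGCGCC in the 250 bases searched. Steap4 holds the STAT element 116 bases before its start. Windows were listed for 7 of the 10 genes, 12 windows in all. Among the others, 1 window of Tfrc held GGCGCC, 89 bases before the start, and none of Cp, Fth1, Ftl1 or Tfr2 held either motif. Over all 32851 listed windows of 250 bases, 7.02% held TTCNNNGAA and 9.59% held GGCGCC. A match describes these letters only.

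Levels are intensities as deposited, on a linear scale, and changes are differences of log2(intensity + 16), which understates the change of genes of low intensity. Genes were called by limma at a Benjamini-Hochberg adjusted p under 0.05 over all 18194 genes of a comparison, and "raised", "lowered", "rose" and "fell" refer to called changes. Array medians lay between 69.7 and 79.5. Arrays are numbered within a group by accession order. Values after a ± sign are the SD of 2 arrays for a level and the standard error for a change. A pair of arrays stood apart in the 3' over 5' ratio of their Gapdh probe sets, a sign of RNA quality: the second array of 48 h (log2 ratio 1.22, against -0.44 to 0.32 on the other 19 adult arrays) and the first of E10.5 (1.49, against -0.43 to -0.17 on the other 11 embryonic arrays). The main changes that include 48 h or E10.5 are also given without both of these arrays. The liver label was borne out in the adult arrays by a hepatocyte marker list (10 of 12 genes measured), whose summed intensity was 34870 to 69600 on the 18 arrays after hepatectomy and 39780 and 47800 at time 0. It was 6190 to 28540 on the embryonic arrays, where albumin (Alb) of the list had stage means of 1249 to 8761 and Cyp2e1 of 53.42 to 86.18.

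In embryonic liver the receptor Tfrc was high, and hepcidin, its sensor Tfr2, the reductase Steap4 and the ferroxidase Cp were low. Against time 0, 2 of the 8 measured genes were raised (Tfrc and Slc11a2) and 4 were lowered (Hamp, Tfr2, Steap4 and Cp), where 55.7% of all genes were called, 30.9% as higher and 24.8% as lower. That share is high, so the count alone does not set these genes apart. Slc11a2 was raised on the probe set used, while 2 of its 4 probe sets were lowered. For 5 of the 8 genes the 12 embryonic arrays lay wholly outside the range of the 20 adult arrays, above it for Tfrc and below it for Hamp, Tfr2, Cp and Steap4. Over all genes 23.0% had no such overlap, 15.4% lying above the adult range and 7.63% below it. After hepatectomy fewer genes moved. Hamp alone was raised at 1 to 6 h (0.978% of all genes called, 0.726% as higher). Hamp, Cp and Steap4 were raised and Slc40a1 was lowered at 12 to 30 h (4.79% called, 2.61% as higher and 2.18% as lower), and Cp and Steap4 were raised and Tfrc was lowered at 48 to 72 h (2.65% called, 2.01% as higher and 0.638% as lower). The median change of the 8 genes was 0.21, 0.48 and 0.42 at the 3 phases and -1.41 in the embryo, against 0, 0, 0 and 0.02 over all genes. These comparisons share the 2 time 0 arrays. Without the 2 arrays that stood apart, the numbers called were 1, 5 and 5 in the 3 phases and 6 in the embryo. The embryonic changes then were -5.20 for Hamp, 2.58 for Tfrc, -2.47 for Tfr2, 1.18 for Slc11a2, -6.67 for Cp and -5.07 for Steap4.

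**Figure D1:**
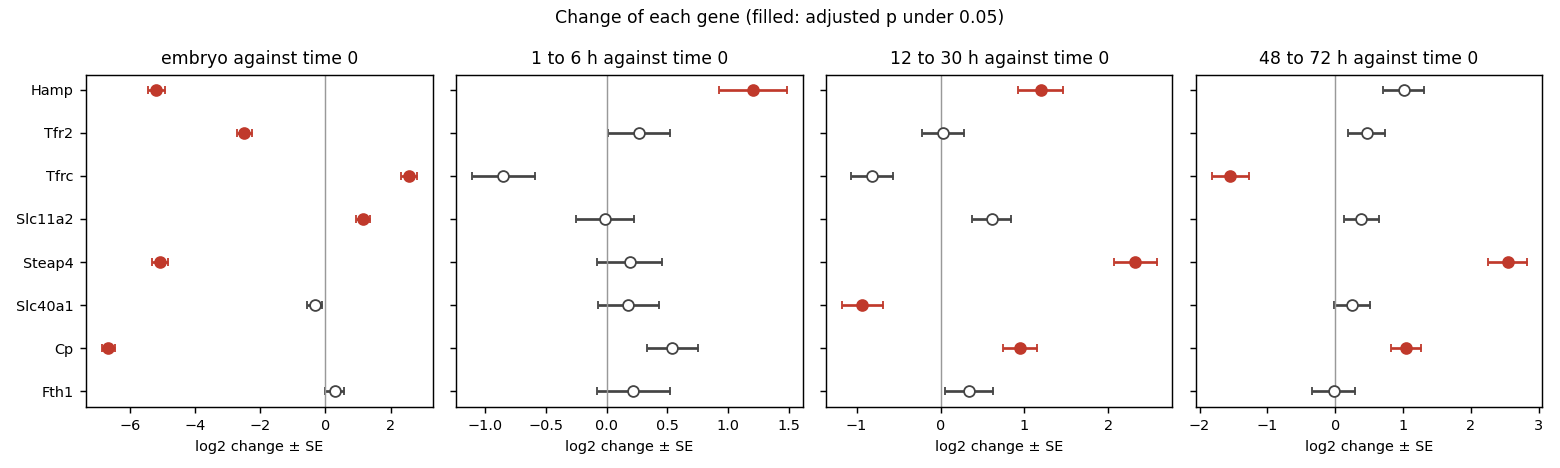
Change of the 8 genes against time 0 (log2, with standard error) in the embryo and in 3 phases after hepatectomy; filled points were called at an adjusted p under 0.05. Hamp, Tfr2, Steap4 and Cp lie far below 0 in the embryo and Tfrc and, on the probe set used, Slc11a2 above it. Steap4 is the gene furthest from 0 at 12 to 30 h and at 48 to 72 h.

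Hamp was high in every adult liver and near the middle of the array in the embryo. Its intensity was 2268 and 4240 on the time 0 arrays, 8445 and 8527 (1 h), 6390 and 7565 (2 h), and 6237 and 6248 (6 h). It was 8925 and 5555 (12 h), 9628 and 8044 (18 h), 8084 and 8007 (24 h), and 5538 and 4768 (30 h). Last, it was 8293 and 2856 (48 h) and 7312 and 8741 (72 h). Of the 18 arrays after hepatectomy, 17 lay above both time 0 arrays, and the exception was the second array of 48 h, one of the pair that stood apart. All are set against the same 2 time 0 arrays, and Fth1, called in no comparison, had 14 of 18 above both. The share over all genes was not determined for this count, nor for such counts of other genes below. The change of Hamp was 1.20 ± 0.28 at 1 to 6 h (2.3-fold, limma adjusted p = 0.0366) and 1.19 ± 0.27 at 12 to 30 h (2.29-fold, adjusted p = 0.0118). At 48 to 72 h it was 1.01 ± 0.30 and not called (adjusted p = 0.0762). Without the 2 arrays that stood apart it was 1.39 ± 0.23 and called (adjusted p = 0.000962). Of single times, 12 h, 18 h and 72 h were called, and no step between neighbouring times was. Without those 2 arrays every single time but 30 h was called, with 1.41 ± 0.30 at 48 h. The step from time 0 to 1 h was then called as well (1.45 ± 0.25).

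The size of the Hamp rise depended on the first time 0 array, where Hamp was lowest of all adult arrays. Without that array the change was 0.755 at 1 to 6 h (adjusted p = 0.843) and 0.745 at 12 to 30 h (adjusted p = 0.371). With quantile normalization of all arrays the change was called but smaller, 0.587 at 1 to 6 h (adjusted p = 0.0123) and 0.512 at 12 to 30 h (adjusted p = 0.00953). Cp was also lower and Tfrc higher on the first time 0 array than on the second, and its summed hepatocyte marker intensity was 39780 against 47800 on the second. The part of that difference in the result was not tested. The call at 1 to 6 h was lost on leaving out any of 15 single arrays in turn, while the call at 12 to 30 h was lost on leaving out the first time 0 array alone of the 32. The second Hamp probe set changed by 1.16 ± 0.31 at 1 to 6 h (adjusted p = 0.0941) and by 1.16 ± 0.30 at 12 to 30 h (adjusted p = 0.0259). On the arrays after hepatectomy Hamp ranked between place 15 and place 136 of 45101 probe sets, at 33.6% to 82.7% of the highest intensity of the array. How far intensity still follows RNA so near the top of the scale was not tested.

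In the embryo Hamp ran between 54.79 and 115.2 over 12 arrays, with a median of 65.2, against 2268 and 4240 at time 0. All 12 arrays lay below every adult array. The change was -5.20 ± 0.26 (adjusted p = 3.98e-13) against time 0 and -6.20 ± 0.20 (adjusted p = 9.54e-17) against 48 to 72 h, or -6.59 ± 0.17 without the 2 arrays that stood apart. The embryonic intensities straddle 74.6, the median of all values in the series, a range where probe sets of unexpressed genes also lie. They were not shown to be above background, so no fold is given for these changes. The 2 highest stage means were those of E14.5 (83.38 ± 5.14, SD, n = 2) and E16.5 (97.33 ± 25.2, SD, n = 2), but the change per day was not called (0.10 ± 0.05, adjusted p = 0.146). Hamp2, the paralog next to Hamp, had stage means of 117.7 to 244.7 in the embryo and 2345 ± 1870 (SD, n = 2) at time 0, and was lowered by the same comparison (-3.44 ± 0.42, adjusted p = 4.17e-07). After hepatectomy its change at 1 to 6 h was 1.21 ± 0.45 and not called (adjusted p = 0.379). Hamp and Hamp2 are close copies, and probes of either may read transcripts of both.

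Genes that control hepcidin were followed in 2 lists. Of the BMP, hemojuvelin, HFE and SMAD list, 20 of 24 genes were measured, and limma called 0 of them against time 0 at 1 to 6 h, at 12 to 30 h and at 48 to 72 h. At an unadjusted p under 0.05 there were 4, 5 and 3, and the median changes were 0.11, 0.13 and 0.09. The gene of smallest p in each phase was Smad7, the inhibitory SMAD, at 0.51 ± 0.15, 0.40 ± 0.15 and 0.59 ± 0.16 (adjusted p = 0.18, 0.156 and 0.0583). At 12 to 30 h against 1 to 6 h, 4 of the 20 were lowered and 1 was raised. Tmprss6, the protease that cleaves hemojuvelin, fell (-0.73 ± 0.14, adjusted p = 0.00072). Hemojuvelin (Hjv) fell as well (-0.63 ± 0.21, adjusted p = 0.0473), and Id1, a BMP target, rose (0.50 ± 0.14, adjusted p = 0.0169). In that comparison 15.3% of all genes were called, 6.99% as higher and 8.28% as lower. Of the interleukin 6 and STAT3 list, 3 of 10 genes were raised at 12 to 30 h: Cebpd (1.26 ± 0.22, adjusted p = 0.0013), Socs3, the feedback inhibitor of STAT3 (1.12 ± 0.24, adjusted p = 0.00819), and Stat3 itself (0.85 ± 0.23, adjusted p = 0.0343). In that comparison 4.79% of all genes were called, 2.61% as higher. Cebpd was also raised at 1 to 6 h (1.055 ± 0.22, adjusted p = 0.0169), as the only gene of that list, where 0.726% of all genes were called as higher.

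In the embryo the genes of the BMP list changed in both directions. Against time 0, 8 of the 20 were lowered and 4 were raised, where 55.7% of all genes were called, 24.8% as lower and 30.9% as higher, so that the number called is near the background. The median change was 0.04, against 0.02 over all genes. The raised genes, named after their values were seen, were Smad6 (0.89 ± 0.27, adjusted p = 0.00709), Smad5 (0.73 ± 0.15, adjusted p = 0.000211), Id1 (0.61 ± 0.20, adjusted p = 0.0123) and Bmpr1a, a BMP receptor (0.42 ± 0.11, adjusted p = 0.00293). Tmprss6 averaged 95.17 to 263.1 over the embryonic stages and 1133 ± 256 at time 0 (SD, n = 2), a change of -2.63 ± 0.195. Hjv averaged 22.7 to 104.9 over the stages and 374.4 ± 56.9 at time 0 (-2.48 ± 0.30), and Hfe 73.11 to 169.5 over the stages and 341.6 ± 53.3 at time 0 (-1.44 ± 0.14). The adjusted p-values were 1.91e-10, 3.37e-07 and 1.99e-08. Of the interleukin 6 and STAT3 list, 5 of 10 genes were lowered and 2 were raised against time 0. Socs3 was among the lowered (-2.14 ± 0.23, adjusted p = 7.94e-08). Per day over the stages, 10 of the 20 genes of the BMP list fell and 3 rose. Over all genes 11.5% were called as lower per day and 16.4% as higher. Smad7 was among those that fell (-0.28 ± 0.03 per day, adjusted p = 7.25e-08).

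**Figure D2:**
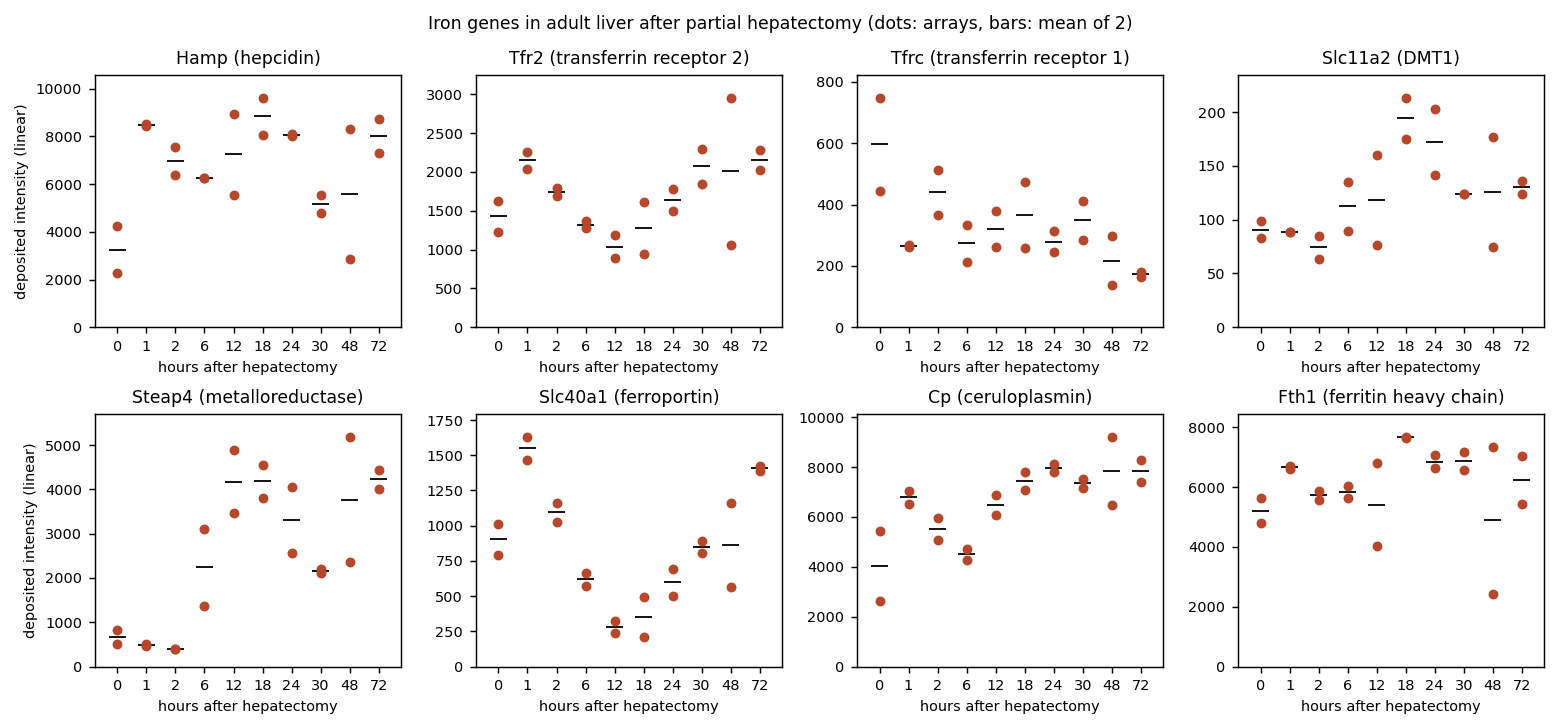
Deposited intensity (linear) of the 8 genes at time 0 and at 9 times after hepatectomy; dots are arrays and bars the mean of 2. Hamp lies above its time 0 arrays on 17 of 18 arrays, Steap4 is low up to 2 h and high from 6 h on, and Slc40a1 is lowest at 12 and 18 h.

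Tfr2, the iron sensor of hepatocytes, was low in the embryo and rose there with stage. After hepatectomy it read between 889.2 and 2959 on 18 arrays, with the extremes at 12 h and 48 h, and 1225 and 1630 at time 0. It was called in none of the 3 phases against time 0 (adjusted p = 0.961, 0.988 and 0.51) nor by the F test over the 9 times (adjusted p = 0.129). Without the 2 arrays that stood apart it was raised at 48 to 72 h (0.83 ± 0.20, adjusted p = 0.0208), and it was then also higher than at 12 to 30 h (0.80 ± 0.15, adjusted p = 0.00282). In the embryo it read 35.51 and 41 (E10.5), 202.1 and 206.1 (E11.5), 340.4 and 255.6 (E12.5), 334.7 and 392.7 (E13.5), 445.1 and 391.8 (E14.5), and 448 and 427.7 (E16.5). All 12 arrays lay below every adult array, and the only called step was E11.5 against E10.5 (2.02 ± 0.32, adjusted p = 0.000247). That step was 1.95 ± 0.26 without the 2 arrays that stood apart. The E10.5 arrays lie below 74.6, the median of all values in the series. They were not shown to be above background, so no fold is given for the step. Against time 0 Tfr2 was lowered, with a change of -2.49 ± 0.24 (limma adjusted p = 1.36e-08). That change includes the E10.5 arrays, so no fold is given for it either, and it ran from -3.04 to -1.62 under 11 alternatives. Per day Tfr2 rose by 0.43 ± 0.05 (adjusted p = 2.25e-07). The second probe set moved the same way in both (-1.62 and 0.34). Across the 12 embryonic arrays Tfr2 followed the summed hepatocyte markers (Pearson r = 0.99, Spearman rho = 0.94, and r = 0.976 without the 2 arrays farthest from the median sum), and its 3 closest genes were Spire1 (r = 0.995), Pon2 (r = 0.995) and Fabp1, the liver fatty acid carrier (r = 0.994). Spire1 read -13.94 to 4.67 on the adult arrays and Fabp1 3437 to 11920. Tfr2 and Tfrc gave r = 0.99 and rho = 0.92 there, and Tfr2 gave r = 0.99 with Slc40a1 and 0.96 with Slc11a2. Tfr2 was not set against the erythroid list, so its relation to the hepatocyte sum does not tell cell types apart. These points share stage and pool, and the part of hepatocytes in the level of Tfr2 was not tested.

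Tfrc, the cellular receptor for transferrin, was high in the embryo. On the embryonic arrays it read 833.4 and 917.8 (E10.5), 3260 and 2706 (E11.5), 4617 and 4607 (E12.5), 5260 and 5108 (E13.5), 5400 and 5120 (E14.5), and 5384 and 5589 (E16.5). At time 0 it read 748.7 and 443.6. All 12 embryonic arrays lay above all 20 adult arrays, narrowly so at E10.5. Against time 0 Tfrc was raised by 2.56 ± 0.24 (5.91-fold, adjusted p = 9.25e-09), and all 6 of its probe sets were raised, by 2.43 to 2.94. The step to E11.5 was called (1.75 ± 0.32, 3.35-fold, adjusted p = 0.00108) and no later one was. That step was 1.68 ± 0.34 without the 2 arrays that stood apart (adjusted p = 0.00614).

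Markers of red cell precursors moved with Tfrc. All 10 measured genes of the erythroid list of 14 were raised in the embryo against time 0. Over all genes 30.9% were called as higher there. The median change of the 10 was 4.30, and their summed intensity was 3747 to 27650 on the embryonic arrays and 1656 and 2394 at time 0. Across the 12 embryonic arrays Tfrc followed that sum (Pearson r = 0.97, Spearman rho = 0.99, and r = 0.997 without the 2 arrays farthest from the median sum). The 3 genes closest to Tfrc there were Klf1, an erythroid transcription factor (r = 0.999), Ermap, an erythroid membrane protein (r = 0.999), and Rhag, the Rh-associated glycoprotein (r = 0.998). Rhag read near or below 0 in adult group means (-14.41 to 3.639) and 1953 ± 96.9 at E16.5 (SD, n = 2). Tfrc also gave r = 0.97 with Slc40a1 and 0.96 with Slc11a2 on these arrays. It was not set against the hepatocyte list, so its relation to the erythroid sum does not tell cell types apart. These points share stage and pool, and the part of erythroid cells in the level of Tfrc was not tested.

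In the adult, Tfrc was lower on most arrays after hepatectomy. Against 748.7 and 443.6 at time 0, it read 260.1 and 266.4 (1 h), 365 and 513.3 (2 h), and 214.1 and 332.1 (6 h). It read 262.9 and 377.2 (12 h), 259.4 and 474.4 (18 h), 312.3 and 245.4 (24 h), and 285 and 412.6 (30 h). Last, it read 136.4 and 297.7 (48 h) and 180 and 164.7 (72 h). Of the 18 arrays, 16 lay below both time 0 arrays, and the exceptions were the second arrays of 2 h and 18 h. At 48 to 72 h it was lowered, with a change of -1.55 ± 0.28 (2.92-fold, adjusted p = 0.00196), and it was also lower than at 12 to 30 h (-0.73 ± 0.19, adjusted p = 0.0279), a comparison in which Slc40a1 was the other gene called (5.67% of all genes called, 4.09% as higher and 1.58% as lower). The changes at 1 to 6 h (-0.85 ± 0.26) and at 12 to 30 h (-0.82 ± 0.25) were not called (adjusted p = 0.194 and 0.0665). Without the 2 arrays that stood apart Tfrc was called at 12 to 30 h as well (-0.82, adjusted p = 0.0269), and its change at 48 to 72 h was -1.81 against time 0 (adjusted p = 0.000268) and -0.99 against 12 to 30 h (adjusted p = 0.00392). The call against 12 to 30 h was lost without the second array of 18 h, the second of 30 h, the first of 48 h or either of 72 h, with changes down to -0.469 without the first of 48 h. Without the first time 0 array, where Tfrc was highest of the adult arrays, the change at 48 to 72 h was -1.18 and not called (adjusted p = 0.0928). All 6 probe sets had negative changes at 48 to 72 h, from -1.55 to -0.55, of which the one used here alone was called. In the same phase 16 of 17 genes of DNA replication and mitosis were raised, with a median of 1.70. Over all genes 2.01% were called as higher. The summed erythroid markers were 1946 to 2352 in that phase, against 1656 and 2394 at time 0. Across the 20 adult arrays Tfrc did not rise with the summed replication and mitosis list (r = -0.45, rho = -0.25). Without the 2 arrays farthest from the median sum r was -0.113.

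**Figure D3:**
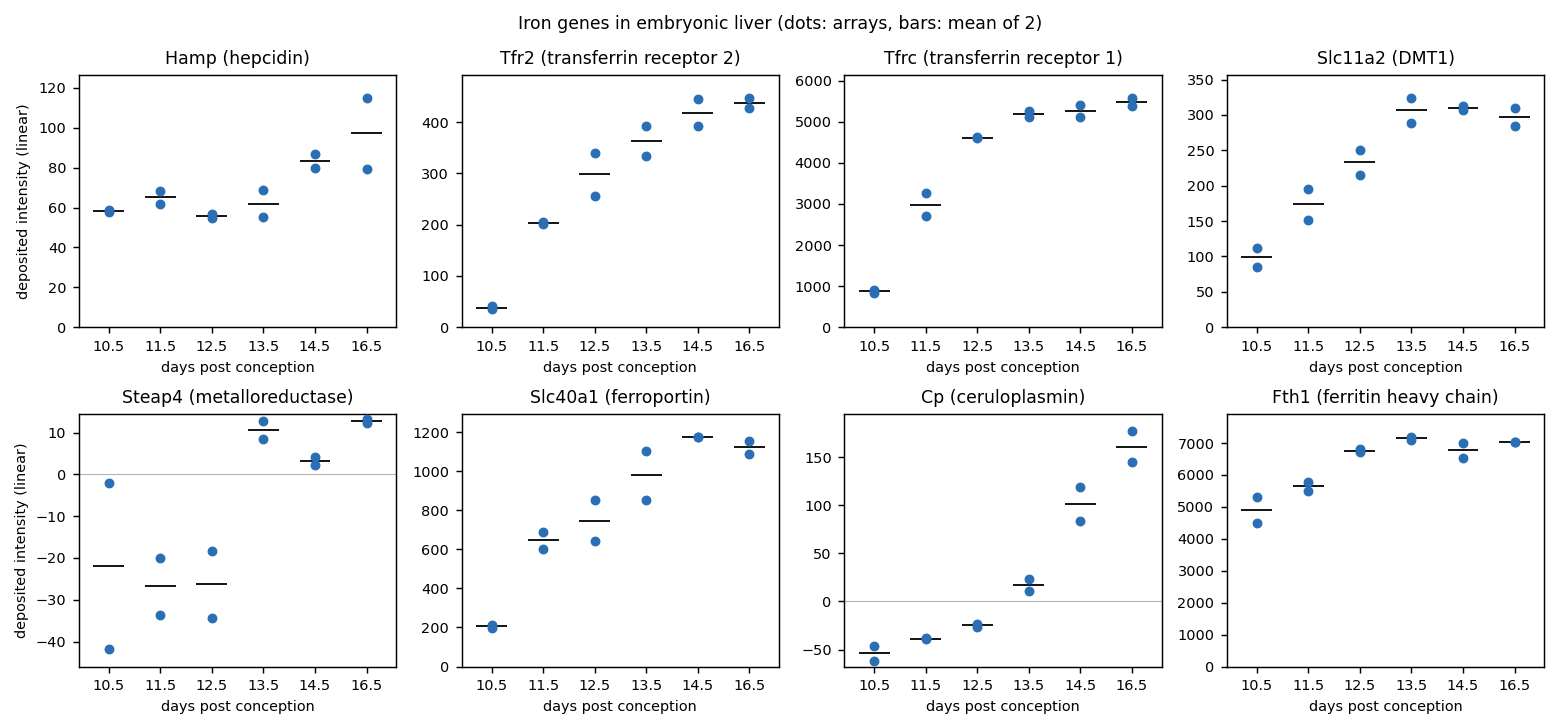
Deposited intensity (linear) of the 8 genes at 6 embryonic stages; dots are arrays and bars the mean of 2, and the y axes differ between genes and from those of the adult plots. Tfrc, Tfr2 and Slc40a1 are lowest at 10.5 days and higher from 11.5 days on, Hamp stays between 54.79 and 115.2, and Steap4 and Cp are around or below 0 up to 12.5 days.

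Slc11a2, the transporter DMT1, gave no single direction in the embryo, because its probe sets disagreed. The one of highest mean (1452078_a_at) read 85.28 and 112.2 (E10.5) and between 152 and 324.6 on the later 10 embryonic arrays, against 82.64 and 98.95 at time 0, a change of 1.15 ± 0.22 (2.22-fold, adjusted p = 0.000153). Probe set 1417584_at was also raised (1.24 ± 0.15, adjusted p = 5.68e-07). Probe sets 1426441_at and 1441709_at were lowered, by -0.57 ± 0.17 (adjusted p = 0.00638) and -1.41 ± 0.25 (adjusted p = 5.34e-05). Their embryonic arrays read 57.51 to 127.3 and 3.897 to 36.2, against time 0 arrays of 154.9 and 163.5, and of 78.11 and 81.91. All 4 probe sets lie low on the intensity scale, and which transcript each of them reads was not examined. After hepatectomy Slc11a2 was called in no phase against time 0, though it was higher at 12 to 30 h than at 1 to 6 h on the probe set of highest mean (0.62 ± 0.16, 1.54-fold, adjusted p = 0.00938). The other 3 probe sets were not called there: 1426441_at changed by 0.33, 1441709_at by 0.23 and 1417584_at by -0.27 (adjusted p = 0.0609, 0.459 and 0.109). The mean of all 4 changed by 0.23 and was not called (adjusted p = 0.151). It was raised at 18 h alone among the single times (213.7 and 174.9, 0.98 ± 0.29, adjusted p = 0.043).

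**Figure D4:**
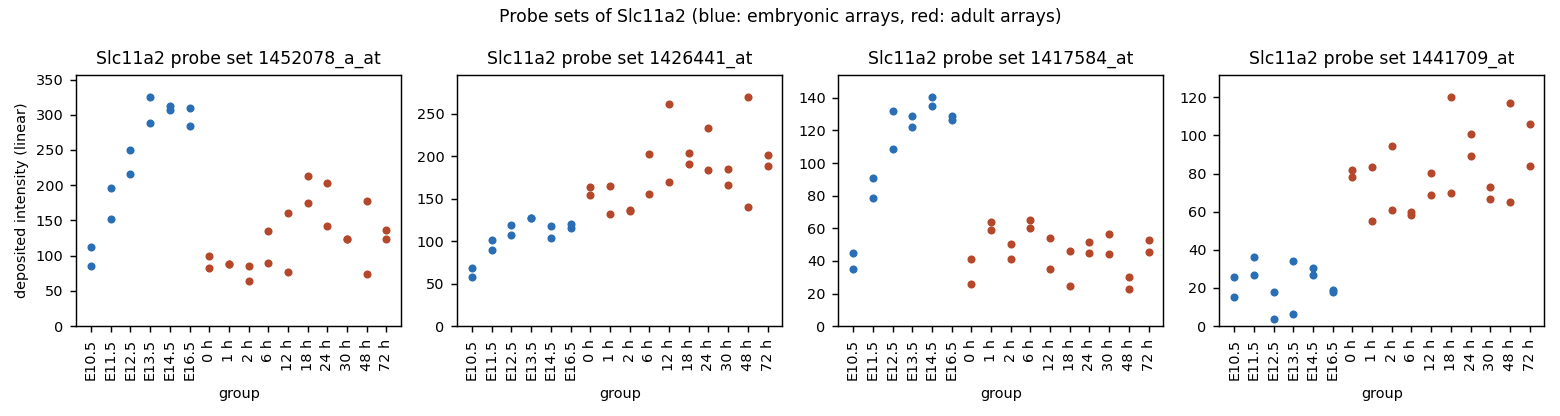
Deposited intensity (linear) of the 4 probe sets of Slc11a2 on every array, embryonic stages (blue) left of adult times (red). Probe sets 1452078_a_at and 1417584_at are higher on most embryonic arrays and 1426441_at and 1441709_at lower, so the direction of the embryonic change depends on the probe set.

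Steap4, a metalloreductase that reduces iron and copper, had the largest rise of the 8 genes after hepatectomy. It read 514.3 and 818 at time 0, 469.3 and 518.7 (1 h), 396.6 and 395.5 (2 h), and 3111 and 1369 (6 h). It read 4885 and 3468 (12 h), 4560 and 3803 (18 h), 2556 and 4057 (24 h), and 2105 and 2198 (30 h). At 48 h it read 5189 and 2354, and at 72 h 4019 and 4438. Every array from 6 h on lay above both time 0 arrays, and the 4 arrays of 1 and 2 h lay below the higher of them. The step from 2 h to 6 h was the only adult step called for Steap4 (2.34 ± 0.33, 5.05-fold, adjusted p = 0.000761, where 0.940% of all genes were called). Against time 0 Steap4 was raised by 2.32 ± 0.26 at 12 to 30 h (4.99-fold, adjusted p = 1.29e-05) and by 2.54 ± 0.28 at 48 to 72 h (5.8-fold, adjusted p = 2.38e-05), and at each single time from 6 h on. The change at 48 to 72 h was 2.82 ± 0.27 without the 2 arrays that stood apart (adjusted p = 3.87e-06). Without the first time 0 array the changes of both phases were 1.99 and 2.21 and remained called. The second probe set changed by 2.51 and 2.27, of which the first was called.

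Acute phase genes rose beside Steap4. An acute phase list of 16 had 15 measured genes. Of these, 9 were raised at 12 to 30 h (median 1.34) and 8 at 48 to 72 h (median 1.30). Over all genes 2.61% and 2.01% were called as higher in these phases. The summed intensity of the list was 68490 to 108900 at 12 to 30 h and 30940 and 46170 at time 0. Across the 20 adult arrays Steap4 followed that sum (r = 0.86, rho = 0.86, and r = 0.824 without the 2 farthest arrays). The 3 genes closest to Steap4 were Lcn2 (r = 0.963), which binds bacterial iron carriers, the serum amyloid gene Saa2 (r = 0.953) and Klra17 (r = 0.95). Lcn2 averaged 7085 ± 1250 at 12 h and 232.4 ± 18.5 at time 0 (SD, n = 2 each). It was raised by 4.96 ± 0.39 at 12 to 30 h (31.2-fold, adjusted p = 1.12e-07). For Hamp and the same sum r was 0.59 and rho 0.48 (r = 0.415 without the 2 farthest arrays). These arrays share time and pool, and the part of the acute phase in the rise of Steap4 was not tested.

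In the embryo Steap4 lay around 0. Its 12 arrays read between -41.81 and 13.17, with a median of 0.057, and the highest stage mean was 12.74. The change against time 0 was -5.07 ± 0.25 (adjusted p = 2.6e-13), a size set by the constant added before taking logs. A trend of 0.15 ± 0.05 per day was called (adjusted p = 0.0251), but at such intensities it describes values around 0, and the second probe set gave -0.001.

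**Figure D5:**
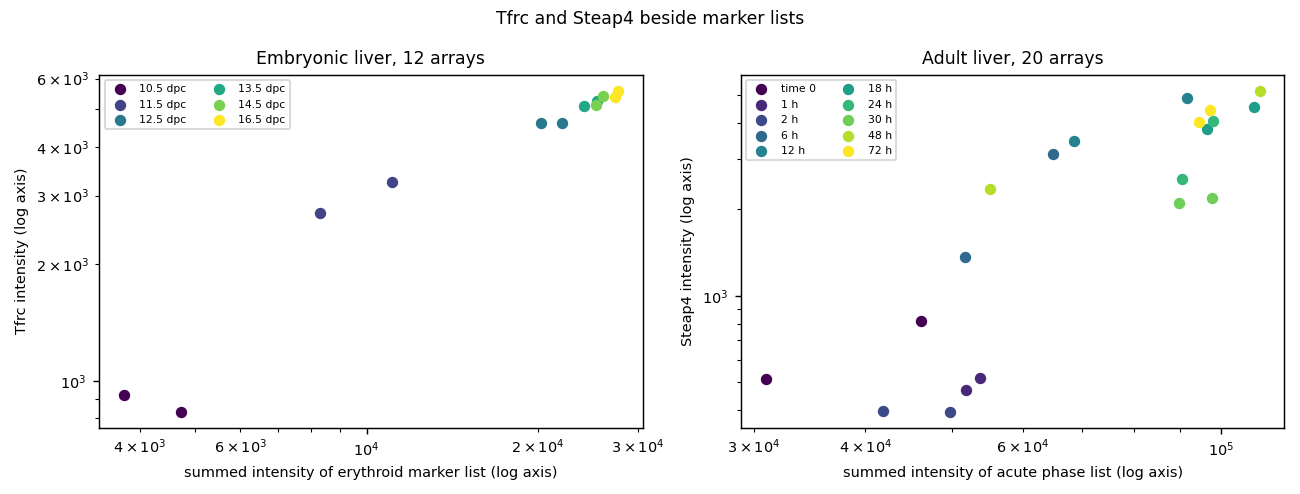
Left, intensity of Tfrc against the summed intensity of the erythroid marker list on 12 embryonic arrays; right, intensity of Steap4 against the summed intensity of the acute phase list on 20 adult arrays. All axes are logarithmic. Tfrc rises with the erythroid sum over the stages, and Steap4 is higher on arrays of 6 h and later than on those up to 2 h.

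Slc40a1, the iron exporter ferroportin, dipped and recovered after hepatectomy. It read 794.5 and 1010 at time 0, 1469 and 1631 (1 h), 1159 and 1029 (2 h), and 572.6 and 666.2 (6 h). It read 325.7 and 237.3 (12 h), 494.1 and 207.6 (18 h), 695.2 and 500.3 (24 h), and 804.8 and 891.4 (30 h). At 48 h it read 1158 and 563.3, and at 72 h 1422 and 1391. The 4 arrays of 12 and 18 h were below all other adult arrays, and the 2 arrays of 1 h were the highest. Without using time 0, it was lower at 12 to 30 h than at 1 to 6 h (-1.11 ± 0.17, 2.16-fold, adjusted p = 7.92e-05) and higher at 48 to 72 h than at 12 to 30 h (1.18 ± 0.19, 2.27-fold, adjusted p = 0.000385). The second of these was 1.44 ± 0.19 without the 2 arrays that stood apart (adjusted p = 0.000118). Both calls held on leaving out each of the 32 arrays in turn, and the second probe set gave both as well (-0.71 and 0.90, adjusted p = 0.0141 and 0.0154). The step from 6 h to 12 h was called (-1.11 ± 0.31, adjusted p = 0.041, where 4.91% of all genes were called).

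Against time 0 the dip of Slc40a1 was -0.93 ± 0.24 at 12 to 30 h (1.91-fold lower, adjusted p = 0.0286). It was strongest at 12 h (-1.63 ± 0.31, adjusted p = 0.00159) and 18 h (-1.43 ± 0.31, adjusted p = 0.00551). The call for 12 to 30 h was lost without either time 0 array, the second array of 24 h or the first of 30 h, with changes of -0.76 to -1.10. The second probe set changed by -0.71 ± 0.28 (adjusted p = 0.186). Ferroportin is abundant in liver macrophages as well as in hepatocytes. The summed intensity of 11 measured macrophage markers was 3203 to 5137 at 12 to 30 h and 4237 and 4404 at time 0. Of the 11, 4 were raised at 48 to 72 h, where 2.01% of all genes were called as higher. Across the 20 adult arrays Slc40a1 followed that sum with r = 0.67 and rho = 0.65 (r = 0.618 without the 2 farthest arrays), and Tfr2 with Slc40a1 gave r = 0.83 and rho = 0.83. The part of macrophages in the dip was not tested.

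In the embryo Slc40a1 rose early. It read 213.3 and 199.4 (E10.5), 603.7 and 689 (E11.5), 850.4 and 644.4 (E12.5), 854 and 1103 (E13.5), 1176 and 1173 (E14.5), and 1088 and 1157 (E16.5). The step to E11.5 was called (1.57 ± 0.31, 2.97-fold, adjusted p = 0.00223, where 7.76% of all genes were called), and was 1.62 ± 0.33 without the 2 arrays that stood apart (adjusted p = 0.00664). The change per day was 0.34 ± 0.05 (adjusted p = 4.3e-06). From E11.5 on its arrays lay within the adult range. Over all stages the change against time 0 was not called (-0.33 ± 0.24, adjusted p = 0.255), but it was lower than at 48 to 72 h (-0.57 ± 0.18, adjusted p = 0.00762). That difference was -0.84 ± 0.19 without the 2 arrays that stood apart (adjusted p = 0.000656). The second probe set was not called there (-0.12, adjusted p = 0.627), and neither was the first without the first array of 48 h (-0.32, adjusted p = 0.123).

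Cp, the plasma ferroxidase, was raised in the middle and late phases after hepatectomy. It read 2624 and 5446 at time 0, 6524 and 7061 (1 h), 5058 and 5963 (2 h), and 4727 and 4265 (6 h). The change at 1 to 6 h was not called (0.54 ± 0.21, adjusted p = 0.433). On the 8 arrays of 12 to 30 h Cp read between 6070 and 8129, with no overlap with time 0. The change was 0.94 ± 0.20 at 12 to 30 h (1.92-fold, adjusted p = 0.00834) and 1.04 ± 0.22 at 48 to 72 h (2.05-fold, adjusted p = 0.0109), and 4 of its 8 probe sets were raised in each phase. The later change was 1.16 ± 0.23 without the 2 arrays that stood apart (adjusted p = 0.00496), and Cp was then also higher at 12 to 30 h than at 1 to 6 h (0.40 ± 0.13, adjusted p = 0.04). Without the first time 0 array the changes of both phases were 0.42 and 0.51 and were not called (adjusted p = 0.457 and 0.365). With quantile normalization these were 0.25 and 0.37 and were not called either (adjusted p = 0.307 and 0.164). Across the 20 adult arrays the genes closest to Cp were Hpx, which binds free heme (r = 0.958), Ambp (r = 0.956) and Hp, which binds free hemoglobin (r = 0.924). Cp and the summed acute phase list gave r = 0.83 and rho = 0.88 (r = 0.748 without the 2 farthest arrays). Hp and Hpx belong to the list of heme salvage. Of its 12 genes 3 were raised at 12 to 30 h, where 2.61% of all genes were called as higher. Hp rose by 0.93 ± 0.20 (adjusted p = 0.00716), Hpx by 0.79 ± 0.21 (adjusted p = 0.0266) and Flvcr1, a heme exporter, by 0.57 ± 0.14 (adjusted p = 0.0219).

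In the embryo the probe set used for Cp read higher at the late stages, though not all probe sets of the gene did. The one used read -61.51 and -46.26 (E10.5), -38.27 and -39.49 (E11.5), -23.74 and -26.25 (E12.5), 10.4 and 23.81 (E13.5), 83.6 and 119.4 (E14.5), and 177.3 and 144.7 (E16.5). The arrays of E14.5 and E16.5 lay above those of all earlier stages, yet far below time 0 (2624 and 5446). The step from E13.5 to E14.5 was called (1.84 ± 0.26, adjusted p = 0.00189, where 0.0495% of all genes were called). Of the 8 probe sets 3 rose per day, by 0.47 to 0.67, and the other 5 were not called. One of these 5 reached 4.737 at most in the embryo, against 1219 and 3146 at time 0 (0.03 per day, adjusted p = 0.752). The change against time 0 was -6.67 ± 0.20 (adjusted p = 9.54e-17), of a size that the added constant sets, and 7 of 8 probe sets were lowered.

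Fth1, the ferritin heavy chain, was called in no comparison. It read 4494 to 7195 on the 12 embryonic arrays (median 6763), 2438 to 7686 on the 18 arrays after hepatectomy (median 6626), and 4810 and 5629 at time 0. The changes were 0.28 ± 0.28 in the embryo (adjusted p = 0.416), 0.22 ± 0.30 at 1 to 6 h, 0.34 ± 0.29 at 12 to 30 h and -0.02 ± 0.32 at 48 to 72 h, all with wide errors. The lowest adult array was the second of 48 h. Ferritin is regulated largely in translation, which arrays do not measure. Its probe set name ends in _s_at, a mark of probes that may read several transcripts. The second probe set was not called against time 0 but rose per day over the stages (0.14, adjusted p = 0.0317). Among the embryonic arrays the genes closest to Fth1 included the metallothioneins Mt2 (r = 0.985) and Mt1 (r = 0.98).

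Over the embryonic stages 6 of the 8 genes rose per day (27.9% of all genes called, 16.4% as higher): Cp, Tfr2, Tfrc, Slc40a1, Slc11a2 and Steap4, by 0.15 to 0.67. All 6 kept their direction without the 2 arrays that stood apart, at 0.15 to 0.67 per day. The call of Steap4 was lost without any single array of E10.5 or E16.5. It was also lost with an added constant of 64 and with the mean of its probe sets. The F test over the 6 stages called 5, Tfrc, Tfr2, Slc40a1, Slc11a2 and Cp (21.2% of all genes), and that over the 9 times called 5, Hamp, Tfrc, Slc40a1, Cp and Steap4 (18.2%). Of 72 pairs of a gene and a time, 19 were called against time 0, against background shares of 0.484% of all genes (1 h), 0.572% (2 h), 2.12% (6 h), 8.88% (12 h), 7.73% (18 h), 1.25% (24 h), 0.352% (30 h), 1.50% (48 h) and 3.14% (72 h). Steap4 gave 7 of these, Cp 4, Hamp 3, Slc40a1 and Tfrc 2 each and Slc11a2 1. Without the 2 arrays that stood apart 27 were called. Of 112 pairs of a gene and a step between neighbouring times or stages, 6 were called, all named above, and 8 without those 2 arrays. In the adult steps with no call among the 8 genes, 0.0110% (2 h after 1 h), 0.769% (18 h after 12 h), 1.23% (24 h after 18 h), 0.0275% (30 h after 24 h, and the same for 48 h after 30 h) and 0.632% (72 h after 48 h) of all genes were called. In such embryonic steps the shares were 3.14% (E12.5 after E11.5), 0.132% (E13.5 after E12.5) and 0.0879% (E16.5 after E14.5). Against 48 to 72 h, 2 genes were higher in the embryo and 5 lower, the same as against time 0 with Slc40a1 added (66.6% of all genes called, 35.7% as higher and 30.8% as lower). For Slc11a2 this again holds on the probe set used, with 2 of its 4 probe sets lowered.

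Further lists of iron handling were set against time 0 in the embryo, where 55.7% of all genes were called, 30.9% as higher and 24.8% as lower. More genes were raised than lowered in each of the 4 lists, as over all genes, and nothing is read from that direction. Of 13 measured genes of iron import and reduction, 7 were raised and 1 was lowered against time 0 (median 0.55). Mitoferrin 1 (Slc25a37), which brings iron into mitochondria of red cell precursors, averaged 456.2 to 5635 over the stages and 133.9 ± 3.62 at time 0 (SD, n = 2). It was raised by 4.23 ± 0.21 (18.7-fold, adjusted p = 3.52e-13). Of 10 measured genes of iron-sulfur cluster assembly, 7 were raised and 0 lowered (median 0.73), among them Glrx5 (2.06 ± 0.29) and Isca1 (2.01 ± 0.16). The median of all genes was 0.02. Of the ferritin handling list, 4 of 7 were raised, with Ncoa4, the receptor for breakdown of ferritin, at 0.89 ± 0.15 (adjusted p = 3.66e-05), and the iron sensor Aco1 was lowered (-0.92 ± 0.20, adjusted p = 0.000448). Of 12 genes of heme salvage 6 were raised and 4 lowered, with Hp (-6.385 ± 0.19) and Hpx (-2.68 ± 0.20) among the lowered. After hepatectomy limma called 0 genes of iron-sulfur assembly and 0 of ferritin handling against time 0 in the 3 phases, and at an unadjusted p under 0.05 there were 1, 2 and 0 of the first list and 0, 0 and 0 of the other. Slc39a14, a carrier of iron not bound to transferrin, was raised at 12 to 30 h (1.32 ± 0.31, 2.5-fold, adjusted p = 0.0154), with 3398 ± 981 at 12 h and 873.4 ± 175 at time 0 (SD, n = 2 each).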

How the data were processed

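Per the labels, total RNA was extracted with Trizol and 6 microg per array was labelled with biotin. Each array has 1 deposited linear intensity per probe set. Which software made it, and how background and scale were treated, is not given in the sources used here; 2.54% to 4.02% of the values of an array are below 0. Groups were read from each sample's source name. In the embryonic samples the description and the age conflict with it and were not used.

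Of 45101 probe sets, 34958 list 1 gene, which gives 18194 genes. After raising negative values to 0, log2(value + 16) was fitted in R 4.3.3 with limma 3.58.1 (1 mean per group, all 32 arrays, 16 residual and 4.72 prior degrees of freedom, eBayes with trend). A permutation test of 2 arrays against 2 could not go below p = 0.333. Each comparison had its own Benjamini-Hochberg adjustment, over all genes. The members, the 13 gene lists and the tests were chosen with earlier results of these data known. All members are described. From a list, the 4 genes of smallest p per comparison may be named, and the 3 genes of highest correlation with a member. Alternatives were the added constant, the normalization, the choice of probe set, a filter on low values, array weights, a replicate block, fits of only the arrays compared, and each array left out. Leaving out both arrays that stood apart was added after seeing the data. Promoter windows come from RefSeq.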

Additional observations from a re-analysis of the deposited data

How the results depend on the processing

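The 32 called changes of the 8 genes were recomputed under 11 alternatives and with each of 32 arrays left out, which gave 1376 values. Of these, 1320 kept their direction and call, 55 kept the direction and lost the call, and 1 turned. An array outside a comparison cannot move its change, only the estimate of the spread. Hamp at 1 to 6 h, for example, stayed at 1.204 without the second array of 24 h. The number kept was therefore largely fixed beforehand and does not measure how firm the adult changes are. Values of single other probe sets are not among the 1376. Numbers of genes called moved as follows. The mean of all probe sets of a gene called 0 at 1 to 6 h, 1 at 48 to 72 h against 12 to 30 h, 3 by the F test over the times and 10 pairs of gene and time. A fit of only the arrays compared called 0, 1 and 0 in the 3 phases, 0 in the late against the middle phase, 2 by the F test over the times, 0 pairs of gene and time and 0 steps; it has fewer arrays to estimate the spread. Array weights called 1 at 48 to 72 h against 12 to 30 h. Quantile normalization called 8 by the F test over the stages and 10 steps. Without the second array of 48 h and the first of E10.5, chosen after seeing the data, 5 were called at 48 to 72 h. The cause of these moves was not tested. With 1 array left out, counts in the 3 phases ran from 0 to 2, from 1 to 5 and from 1 to 5, those for the late against the middle phase from 1 to 4, and the others 2 to 8 and 5 to 6 by the F tests over times and stages, 7 to 28 for pairs and 5 to 15 for steps. The lowest counts at 12 to 30 h, at 48 to 72 h and for pairs came without the first time 0 array. Other probe sets of Slc11a2 turned its direction, with -0.268 at 12 to 30 h against 1 to 6 h (1417584_at), -0.566 and -1.407 in the embryo against time 0, -0.834 and -1.565 against 48 to 72 h (1426441_at and 1441709_at), -0.123 there for the mean of its probe sets, and -0.009 per day (1441709_at). That of Steap4 gave -0.001 per day. The replicate numbers were not taken to pair the samples. Over 120 pairs of groups the correlation of deviations ran from -0.357 to 0.555, with a median of -0.00596, and 17 were over 0.1. Shared handling of arrays of the same number was not tested further. With the replicate block 1, 4 and 3 genes were called in the 3 phases, 6 in the embryo and 18 pairs, and no call of the 8 comparisons changed. With 2 arrays a group, many small changes may go undetected here.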
